A study of Homo sapiens with 32 samples.

Results

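Peaks of N6-methyladenosine (m6A) were compared directly between 2 knockouts of the human line PANC-1, long kept in culture from a ductal adenocarcinoma of the pancreas: cells labelled KO CFL1 and cells labelled KO METTL3. All 257321 peaks of the 2 knockout lists on chromosomes 1 to 22 were taken, of 424904 peaks in the 3 lists of the series. Of these, 133842 belonged to the CFL1 knockout and 123479 to the METTL3 knockout. The control list was not used to choose or define any site. Each knockout has 2 samples of fragments pulled down with the m6A antibody and 2 inputs of unselected fragments, 8 samples of the 32 in the series, all from total RNA. The sources used here do not say how the genes were knocked out or whether the cells were clones or pools. The names of the peaks carry no gene name but, in both lists, the letters "si", whose meaning is not given, while the labels say KO. The gene behind each list, and the word knockout used here, therefore rest on the sample labels, and peak lists cannot show whether either protein was absent.

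m6A is the most common internal modification of messenger RNA. It is placed by a nuclear writer complex in which METTL3 is the catalytic subunit and METTL14 holds the RNA, and it lies mostly in long exons and around stop codons. CFL1 encodes cofilin 1, which severs actin filaments and also carries actin into the nucleus. The title of the series links CFL1 to m6A on the RNA of super enhancers. The direct comparison asks which sites tell the loss of the actin regulator from the loss of the methyltransferase. RNA levels in the inputs were not examined, so a site called in 1 knockout alone may differ in methylation, in RNA level or in depth, and these cannot be told apart here. An hg19 genome or annotation was not used here, so sites are given by position and not assigned to genes.

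Peaks had been called in each library separately, and the libraries are named by the numbers in their peak names: CFL1 knockout 3 and 5, METTL3 knockout 3 and 5. CFL1 knockout 3 held 70118 peaks, CFL1 knockout 5 63724, METTL3 knockout 3 61237 and METTL3 knockout 5 62242. CFL1 knockout libraries held more, a mean of 66921 ± 4521 against 61740 ± 711 (SD, n = 2 libraries each), without overlap between the knockouts (exact permutation of 2 against 2 libraries, two-sided p = 0.333, the smallest possible). The median fold enrichment of a peak, the ratio given by the authors, was 4.60 and 4.73 in the CFL1 knockout and 4.64 and 4.75 in the METTL3 knockout, so the medians overlapped. The labels name no separate cultures behind the libraries, and their spread may be only technical.

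Overlapping peaks of the 4 libraries were joined into 115271 sites, and a site counted as called in a library that had at least 1 peak in it. The 2 knockouts shared most of what each called reproducibly. A total of 27095 sites (23.5% of all sites, exact 95% interval 23.3% to 23.8%) were called in all 4 libraries. The CFL1 knockout alone, meaning both of its libraries and neither METTL3 knockout library, held 6454 sites (5.60%). The METTL3 knockout alone held 6211 sites (5.39%), defined the same way. Intervals cover counting error only, since neighbouring sites are not independent.

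The numbers of sites called in exactly 2 libraries set these classes in context. The 4 pairs made of a CFL1 and a METTL3 knockout library held from 1819 to 2079 sites each, against 6454 and 6211 for the pairs within a knockout. Sites of 1 library numbered 20130 in CFL1 knockout 3, 12560 in CFL1 knockout 5, 11298 in METTL3 knockout 3 and 11753 in METTL3 knockout 5. CFL1 knockout 3 thus held the most sites that no other library called. Together the sites of 1 library made up 48.4% of all sites.

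**Figure D1:**
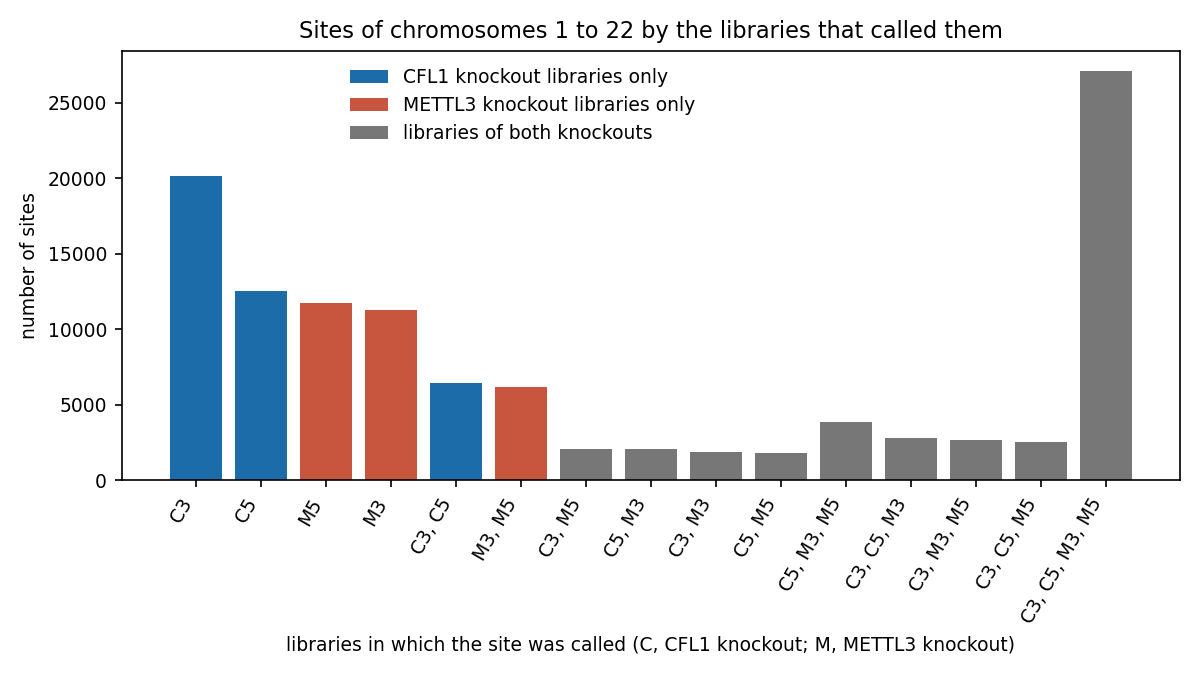
The bars give the number of sites on chromosomes 1 to 22 for each set of libraries that called them (C, CFL1 knockout; M, METTL3 knockout). The 27095 sites of all 4 libraries are the most frequent set, and among the sets of 2 libraries those within a knockout, 6454 and 6211, exceed every set that mixes knockouts, at most 2079.

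Among the 38909 sites called in both CFL1 knockout libraries, 69.6% were called in both METTL3 knockout libraries, 13.8% in 1 of them and 16.6% in neither (exact 95% interval 16.2% to 17.0%). Among the 39865 sites called in both METTL3 knockout libraries, 68.0% were called in both CFL1 knockout libraries, 16.5% in 1 and 15.6% in neither (15.2% to 15.9%). Neither knockout's set was contained in the other, and the shares were of similar size in both directions. The order of the 2 counts depended on the number of peaks per library. With 61237 peaks in each library, those of the highest −log10 q, 5555 sites were of the CFL1 knockout alone and 6657 of the METTL3 knockout alone, a ratio of 0.834 against 1.04 with all peaks.

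Sites of 1 knockout alone were mostly weak, and almost none of the strongest sites told the knockouts apart. Sites were ranked by the lower −log10 q of the knockout's 2 libraries. They were split into 5 groups of equal size. In the weakest group of the CFL1 knockout sites, with a −log10 q up to 4.71, 39.2% (3053 of 7782) were absent from both METTL3 knockout libraries. In the strongest group, from 54.9 up, 0.347% (27 of 7782) were. In the METTL3 knockout, 37.2% (2969 of 7973) of the weakest group and 0.765% (61 of 7973) of the strongest group, from 67.4 up, were absent from both CFL1 knockout libraries. The share fell from each group to the next in both knockouts. Both libraries reached a −log10 q of 10 at 1411 sites of the CFL1 knockout alone (21.9%) and at 1533 of the METTL3 knockout alone (24.7%), against 17105 of the sites of all 4 libraries (63.1%, in all 4). Read depth is unknown from the lists, so an absent site may lie just under the calling threshold. Peak numbers also skip 41.8% to 50.2% of values per library, for a reason not stated. Absent here therefore means absent from the deposited lists.

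**Figure D2:**
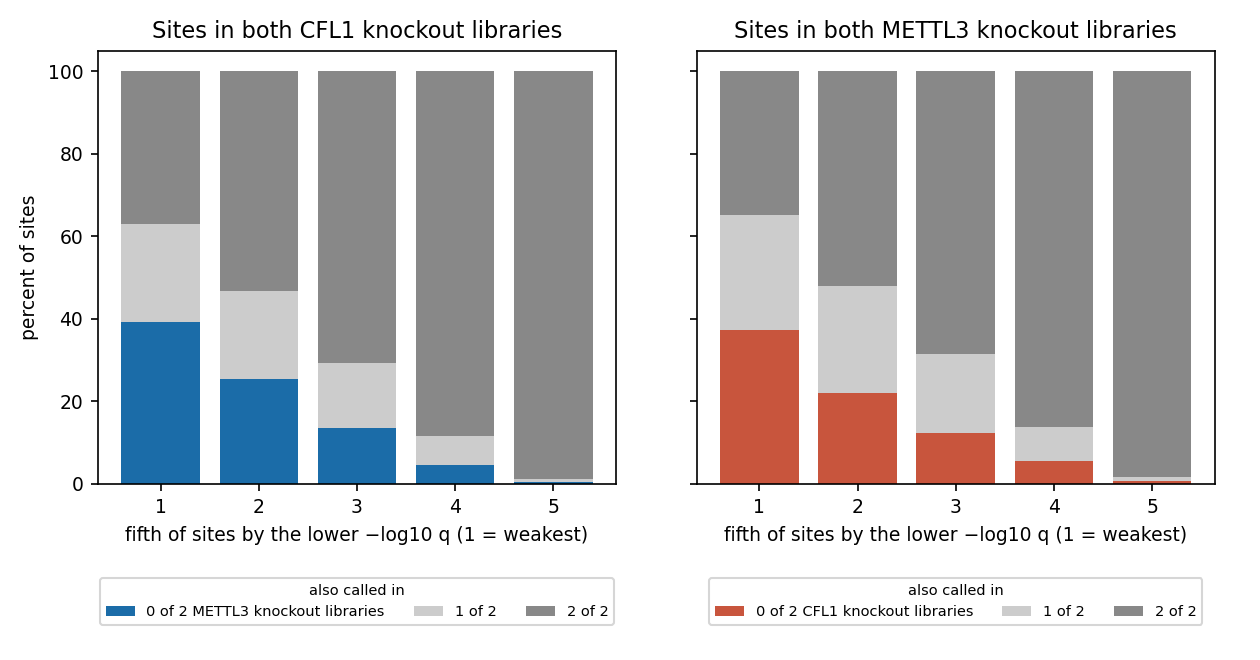
Each bar is 1 of 5 equal groups of the sites called in both libraries of the CFL1 knockout (left) or the METTL3 knockout (right), by the lower −log10 q of its 2 libraries, split by the percent also called in 0, 1 or 2 libraries of the other knockout. Absence from the other knockout falls from 39.2% to 0.347% on the left and from 37.2% to 0.765% on the right.

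The strongest site of the CFL1 knockout alone lay at chr17:48217561-48217764 (hg19), where CFL1 knockout 3 had a −log10 q of 104 and CFL1 knockout 5 of 99.5. It was narrow, 204 bp, with a modest fold of 3.24 and 3.31, and a METTL3 knockout peak came as near as 937 bp. At chr19:1147356-1147597 the −log10 q was 114 and 94.4 and the fold 8.78 and 7.59. A pair of sites lay side by side at chr17:79424257-79424588 (120 and 92.4) and chr17:79425601-79426147 (121 and 84.8), with METTL3 knockout peaks 434 and 174 bp away. The highest fold among the 12 strongest was at chr17:80303292-80303764, 24.2 in CFL1 knockout 3 and 14.7 in CFL1 knockout 5. Among these 12, the site farthest from any METTL3 knockout peak was chr17:869925-870853, at 10838 bp, with a −log10 q of 70.9 and 73.0. The others were chr19:36523210-36524089, chr16:29994696-29994936, chr10:81067050-81067305, chr17:39976738-39977243, chr11:72423367-72423769 and chr19:56162482-56162769, with a lower −log10 q between 73.2 and 83.9. Of the 12, 10 lay on chromosomes 16, 17 and 19, and for 7 the METTL3 knockout had a peak less than 1 kb away.

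The strongest sites of the METTL3 knockout alone reached higher −log10 q. At chr17:78120687-78121006 it was 223 in METTL3 knockout 3 and 205 in METTL3 knockout 5, with a fold of 8.58 and 10.4, and no CFL1 knockout peak lay closer than 27061 bp. At chr2:232325234-232325752 the −log10 q was 196 and 262 but the fold only 3.30 and 4.33, and at chr6:44217879-44218196 it was 159 and 217 with a fold of 2.75 and 3.50. The highest fold by far was at chr7:91222182-91222444, 48.1 and 55.3, with a −log10 q of 158 and 174 and a CFL1 knockout peak 1460 bp away. Next came chr19:2114187-2114420 (158 and 180) and chr19:38743575-38743807 (160 and 158). The remaining 6 were chr1:86046354-86046624, chr1:15736305-15736684, chr1:565007-565263, chr2:128261038-128261282, chr17:4851682-4851935 and chr2:99980556-99980791, with a lower −log10 q between 118 and 132. Of the 12, 4 lay on chromosomes 17 and 19 and for 6 the CFL1 knockout had a peak less than 1 kb away. Both lists mix steep peaks with shallow peaks of low fold.

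Over each class, sites of 1 knockout alone were narrower and less enriched than shared sites. The median site width was 399 bp for the CFL1 knockout alone, 346 bp for the METTL3 knockout alone and 793 bp for sites of all 4 libraries. A site spans all its joined peaks, so peaks of more libraries can widen it. The strongest peak per library had a median width of 313 and 279.5 bp in CFL1 knockout 3 and 5 at sites of that knockout alone. In METTL3 knockout 3 and 5 it was 277 and 259 bp at theirs. At sites of all 4 libraries it was 514, 536, 568 and 540 bp, in the same order of libraries. The median fold was 4.24 and 4.09 for CFL1 knockout 3 and 5 at sites of that knockout alone, and 4.16 and 4.27 in METTL3 knockout 3 and 5 at theirs. At sites of all 4 libraries it was 5.86 and 6.40 for CFL1 knockout 3 and 5 and 6.59 and 6.96 for METTL3 knockout 3 and 5. A peak of the METTL3 knockout lay within 1 kb of 33.8% of the sites of the CFL1 knockout alone, and a peak of the CFL1 knockout within 1 kb of 29.4% of the sites of the METTL3 knockout alone. The median gaps were 2139 and 2991 bp.

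In the control list, which the classes did not use, 12.4% of the sites of the CFL1 knockout alone overlapped peaks of both control libraries and 76.4% of neither. For the METTL3 knockout alone these shares were 17.7% and 70.8%. Sites of all 4 knockout libraries stood apart, with 69.0% in both control libraries and 22.2% in neither. Sites of which both libraries reached a −log10 q of 10 were also compared. Of those of the CFL1 knockout alone, 16.7% were in both control libraries and 72.4% in neither. For those of the METTL3 knockout alone the shares were 27.3% and 59.2%. For sites of all 4 libraries that reached 10 in all 4 they were 82.0% and 12.4%. Shared sites were also wider and stronger, and the part this played was not tested. Shares over all sites are not given here.

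Both classes had sites on all 22 chromosomes, in different shares. Chromosomes 16, 17, 19 and 22, which are among the gene-dense human chromosomes, took a greater share of the sites of the CFL1 knockout alone, and chromosomes 2 to 6 of the sites of the METTL3 knockout alone. On chromosome 1 the counts were close, 614 against 608, as on chromosome 11 with 364 against 349. Both chromosome groups were chosen after their values were seen. Chromosomes 16, 17, 19 and 22 held 28.3% of the sites of the CFL1 knockout alone (1828), 14.0% of the METTL3 knockout alone (871), 21.0% of the sites of all 4 libraries and 19.0% of all sites. Chromosomes 2 to 6 held 20.2%, 32.1%, 26.5% and 27.7% in the same order. The shared sites thus lay between the classes.

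Chromosome 19 showed the widest gap, with 10.3% of the sites of the CFL1 knockout alone (663) against 4.46% of the METTL3 knockout alone (277), a difference of 5.81 percentage points. Of the specific sites on chromosome 19, 70.5% were of the CFL1 knockout (exact 95% interval 67.5% to 73.4%). On chromosome 16 the share of the CFL1 knockout was 68.7% (65.0% to 72.2%), on chromosome 22 67.0% (62.1% to 71.7%) and on chromosome 17 63.5% (59.8% to 67.0%). The lowest share was on chromosome 6, 34.1% (30.2% to 38.1%), followed by chromosome 4 at 37.8%, chromosome 3 at 38.2%, chromosome 5 at 39.3% and chromosome 2 at 44.7%. Among sites reaching 10 on the −log10 q scale in both libraries the gap on chromosome 19 was 14.4% against 5.81% of the class.

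Sites called in 1 library only, which do not enter these classes, gave the same order on most chromosomes where the libraries separated. Chromosome 19 held 6.70% of the sites of CFL1 knockout 3 only and 5.03% of CFL1 knockout 5 only, against 3.96% of METTL3 knockout 3 only and 4.14% of METTL3 knockout 5 only. All sites together had 6.11% there, so CFL1 knockout 3 alone was above this level. The same held on chromosomes 16 and 17, where CFL1 knockout 5 had 4.41% and 4.69% against 4.86% and 5.27% of all sites. Chromosome 6 held 4.43% and 4.90% against 6.16% and 5.82%. The groups did not overlap on either chromosome (exact permutation of libraries, two-sided p = 0.333, the smallest possible, for each). Both CFL1 knockout libraries lay above both METTL3 knockout libraries on 7 of 22 chromosomes (31.8%) and below them on 7 (31.8%). On 13 of these 14 the side matched that of the classes, and on chromosome 9 it did not. CFL1 knockout 3 was the farther of the 2 CFL1 knockout libraries on chromosomes 16, 17, 19 and 22. Without it, the gap on chromosome 19 between sites of the remaining libraries was 1.93 percentage points, and without CFL1 knockout 5 it was 3.01, where sites of the remaining CFL1 knockout library enter without a second call.

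**Figure D3:**
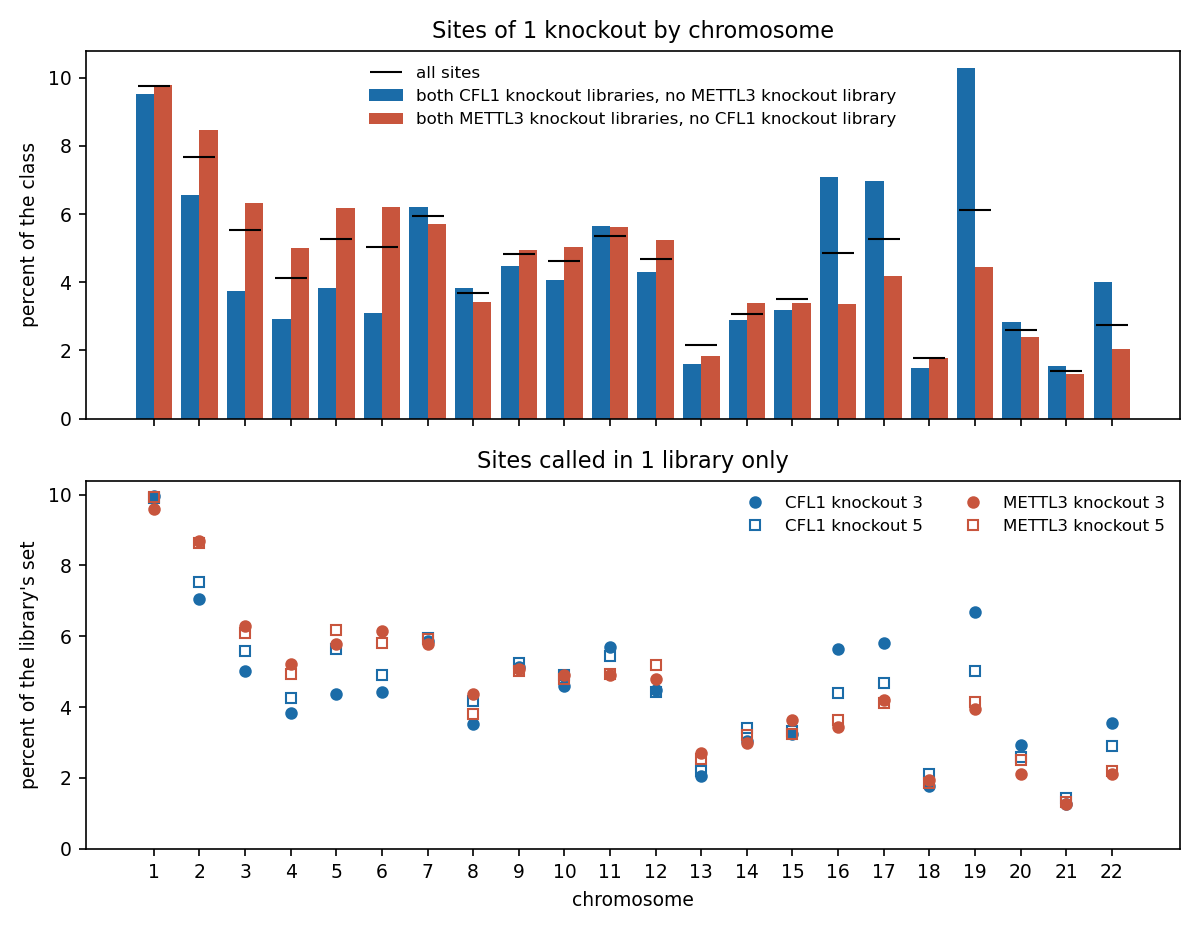
Upper panel, percent of the sites of each knockout alone on each chromosome, with all sites as black marks; lower panel, the same for sites called in 1 library only, 1 point per library. Blue stands above red on chromosomes 16, 17, 19 and 22 and below it on chromosomes 2 to 6 in both panels; on chromosome 19 the bars reach 10.3% and 4.46%.

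Within chromosomes, a greater share of sites lay near a chromosome end for the CFL1 knockout alone than for the other classes. The median distance was 16.3 Mb, against 33.3 Mb for the METTL3 knockout alone and 27.3 Mb for sites of all 4 libraries. Of the sites of the CFL1 knockout alone, 31.7% (2047 of 6454, exact 95% interval 30.6% to 32.9%) were within 5 Mb of the outermost peak of a chromosome. The share was 13.0% (810 of 6211, 12.2% to 13.9%) for the METTL3 knockout alone and 18.8% for sites of all 4 libraries. For chromosomes 13, 14, 15, 21 and 22, whose short arms lack mapped sequence, the far end alone was used. This measure was chosen after the windows of highest excess had been seen. Leaving out chromosomes 16, 17, 19 and 22, the shares were 28.8% and 11.3%. Among sites called in 1 library only they were 22.1% and 17.6% in CFL1 knockout 3 and 5 against 11.4% and 12.3% in METTL3 knockout 3 and 5, without overlap. All sites together had 18.1%, so among the sites of 1 library CFL1 knockout 3 alone was above this level.

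In windows of 1 Mb the excess of the CFL1 knockout was concentrated and that of the METTL3 knockout thin and wide. Of 2703 windows with a site, 738 held more sites of the CFL1 knockout alone and 1197 more of the METTL3 knockout alone. An excess of at least 10 sites was found in 81 windows for the CFL1 knockout, 46 of them on chromosomes 16, 17, 19 and 22, and in 11 for the METTL3 knockout, 0 of them on those chromosomes. Outside chromosome 8, the highest was at chr16:88000001-89000000. It held 45 sites of the CFL1 knockout alone, 3 of the METTL3 knockout alone and 66 of all 4 libraries. Then came chr11:1000001-2000000 (43 against 2), chr13:114000001-115000000 (40 against 3), chr16:1000001-2000000 (43 against 6), chr1:3000001-4000000 (42 against 6) and chr11:1-1000000 (44 against 9). At chr16:88000001-89000000 the sites of 1 library only numbered 92 and 40 in CFL1 knockout 3 and 5 against 9 and 14 in METTL3 knockout 3 and 5. All 6 lay toward a chromosome end.

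Outside chromosome 8, the windows with the greatest excess of the METTL3 knockout were elsewhere. At chr6:26000001-27000000 it had 17 sites against 3 of the CFL1 knockout alone, and in the adjoining chr6:27000001-28000000 13 against 1. This stretch of chromosome 6 holds, as general background, the main human cluster of replication-dependent histone genes. At chr5:140000001-141000000, where the clustered protocadherin genes lie, there were 18 against 5. Next came chr9:68000001-69000000 (12 against 0), chr1:149000001-150000000 (12 against 1) and chr11:7000001-8000000 (10 against 0). Whether the peaks fell within the genes of these clusters was not examined. With the windows split into 5 groups by their number of sites of all 4 libraries, a grouping chosen after seeing the data, in the richest group 4182 sites of the CFL1 knockout alone stood against 2686 of the METTL3 knockout alone, a ratio of 1.56. In the other 4 groups the ratio ran from 0.482 to 0.788.

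Runs of neighbouring sites showed the same contrast. Joined where they lay within 10 kb, 19.3% of the sites of the CFL1 knockout alone (1244) fell into 315 runs of at least 3, against 5.99% of the METTL3 knockout alone (372) in 113 runs. Outside chromosome 8, the longest run by number was at chr12:133104700-133149170, over 44.5 kb. It had 12 sites of the CFL1 knockout alone and 0 of the METTL3 knockout alone. METTL3 knockout peaks lay in it as well. Of its 26 sites, 3 were called in all 4 libraries and 1 each in METTL3 knockout 3 only and METTL3 knockout 5 only. At chr17:936235-957245 there were 11 sites of the CFL1 knockout alone and no site of all 4 libraries. The other 5 sites of this run were called in CFL1 knockout 3 only, so neither METTL3 knockout library had a peak in it. Outside chromosome 8, the longest run of the METTL3 knockout was at chr4:104057417-104084585, over 27.2 kb. It had 9 sites of the METTL3 knockout alone and 0 of the CFL1 knockout alone or of all 4 libraries. Of all 16 sites in it, 1 was called in METTL3 knockout 3 only and 3 in METTL3 knockout 5 only. The rest were called in libraries of both knockouts.

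At the 27095 sites of all 4 libraries, peaks were slightly narrower in the CFL1 knockout. The median width of the strongest peak was 514 and 536 bp in CFL1 knockout 3 and 5 against 568 and 540 bp in METTL3 knockout 3 and 5. The medians did not overlap but CFL1 knockout 5 and METTL3 knockout 5 were 4 bp apart (exact permutation p = 0.333, two-sided, the smallest possible). Per site, the median log2 ratio of width, CFL1 over METTL3 knockout, was -0.05, and -0.02 without METTL3 knockout 3, the library with the widest peaks. Both METTL3 knockout peaks were wider than both CFL1 knockout peaks at 8445 sites (31.2%), and both CFL1 knockout peaks were wider at 5288 (19.5%). Were the knockout labels of the 4 libraries assigned at random, a share of about 0.333 would separate, counting both directions.

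At some sites the strongest peak of each library was broad in 1 knockout and narrow in the other. Other peaks of a library at the site were not counted, so a region called as several peaks can read as narrow. At chr19:1764121-1770089 the peak was 5969 and 5481 bp wide in CFL1 knockout 3 and 5 against 220 and 776 bp in METTL3 knockout 3 and 5, a ratio of means of 11.5. At chr21:46742547-46745971 it was 3327 and 3362 bp against 294 and 362 bp. There the summits of METTL3 knockout 3 and 5 lay at 46744479 and 46742854, so their narrow peaks were not the same peak. The others of this kind were chr16:1118446-1122688 and chr16:2661239-2664393, at ratios of 10.8 and 10.5. In the opposite direction, chr12:74900023-74902896 had peaks of 2871 and 2870 bp in the METTL3 knockout and of 201 and 292 bp in the CFL1 knockout, and chr12:96709738-96714587 reached the highest ratio, 12.8. At chr1:214817760-214820693 the METTL3 knockout peaks were 2932 and 2934 bp wide and those of the CFL1 knockout 258 and 312 bp, although the −log10 q was between 113 and 218 in all 4 libraries. At chr12:132640088-132643077 the ratio was 10.9. These 8 are the extremes, outside chromosome 8, of a ranking by width ratio and represent no typical site.

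Summits, the positions of highest enrichment, lay farther apart between the knockouts than within them. The median distance at sites of all 4 libraries was 23 bp between CFL1 knockout 3 and 5 and 17 bp between METTL3 knockout 3 and 5. Between knockouts it was 36 bp for both pairs with CFL1 knockout 3 and 31 bp for both pairs with CFL1 knockout 5. The 4 values between knockouts thus all exceeded the 2 within. The gap widened with the width of the site: with sites split into 4 groups by width, in the narrowest (up to 505 bp) the distance was 15 and 13 bp within the CFL1 and METTL3 knockout and 16 to 19 bp between, and in the widest (from 1284 bp) 41 and 24 bp within and 72 to 86 bp between. At the 20525 sites of at most 3 kb with 1 peak in each library, it was 19 and 15 bp within and 24 to 29 bp between.

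Of 13588 sites whose summits lay within 50 bp of each other inside each knockout, 769 (5.66%) had the summits of the knockouts over 200 bp apart, and the median distance was 12 bp. Outside chromosome 8, the largest distance was at chr16:2609459-2621662, 7365 bp. The summit was at 2613778 and 2613827 in CFL1 knockout 3 and 5 against 2621157 and 2621178 in METTL3 knockout 3 and 5. This site was also among the 6 strongest of all 4 libraries, with a −log10 q from 567 to 708. At chr2:98090739-98101674 the summits of the knockouts were 5099 bp apart, at chr6:147571970-147576817 4023 bp and at chr15:43814544-43821641 3219 bp. At these sites the strongest peak of each library had a −log10 q of at least 25.7, and its summit lay in a different part of the site in each knockout. The summits compared may belong to separate peaks joined into 1 site.

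**Figure D4:**
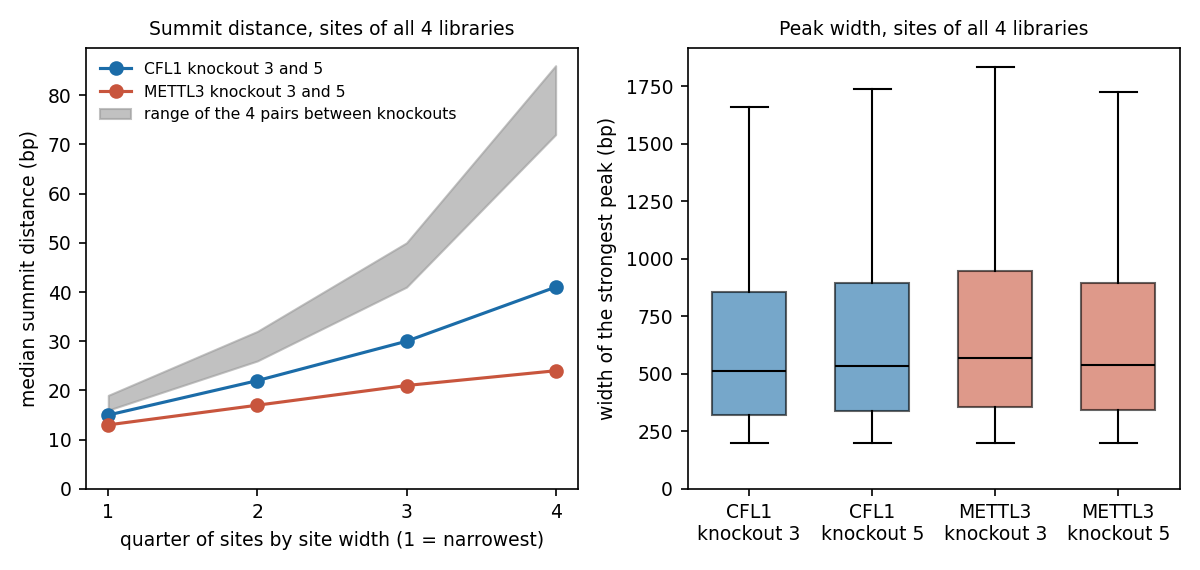
Left, median distance between summits at sites of all 4 libraries, in 4 groups of site width, within each knockout (lines) and over the 4 pairs between knockouts (grey band); right, width of the strongest peak per library at the same sites, as median, quartiles and whiskers to 1.5 times the interquartile range. The band lies above both lines in every group and reaches 72 to 86 bp in the widest, and the median widths run from 514 to 568 bp.

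The strongest shared site was chr15:84867732-84872817, with a −log10 q of 1001 and 1025 in CFL1 knockout 3 and 5 against 1103 and 1372 in METTL3 knockout 3 and 5. Next came chr7:143980314-143984228, whose −log10 q was at least 754 in all 4 libraries, then chr20:61887410-61889540, chr7:143884060-143885626 and chr1:120836928-120839813. These 5, with the site on chromosome 16 named above, were also in both control libraries.

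The order of enrichment at shared sites was compared by ranking the fold over the 27095 sites of all 4 libraries, from 0% (lowest) to 100% (highest) in each library. Ranks were closer within a knockout than between. The median shift was 12.2 percentage points between CFL1 knockout 3 and 5, 10.9 between METTL3 knockout 3 and 5, and 14.4 to 16.1 for the 4 pairs between knockouts. Spearman's rho of fold across sites was 0.683 and 0.745 within the CFL1 and METTL3 knockout and 0.563 to 0.624 between, as a description, since sites within a library are not independent.

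No shared site passed limma's test on rank scores (0 of 27095, 0%, at a Benjamini-Hochberg adjusted p under 0.05), and the smallest adjusted p was 0.189. Each knockout had only 2 libraries, so this count does not show that enrichment was equal. At an unadjusted limma p under 0.05 there were 3942 sites (14.5%). With 2 libraries per knockout, ranks separated without overlap in favour of the CFL1 knockout at 6018 sites (22.2%) and of the METTL3 knockout at 6860 (25.3%). Were the knockout labels of the 4 libraries assigned at random, a share of about 0.333 would separate, counting both directions. Shifts of the mean rank beyond 25 points, without overlap, were seen at 2826 sites higher in the CFL1 knockout (10.4%) and 2643 higher in the METTL3 knockout (9.75%). Of the former 22.7% lay on chromosomes 16, 17, 19 and 22 and 54.9% were in both control libraries, and of the latter 17.0% and 69.2%. Over all 27095 shared sites these shares were 21.0% and 69.0%, so the first group was near them by chromosome and the second by control calls.

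The sites below have the largest rank shifts outside chromosome 8 and are descriptions, as none passed the adjusted test (limma adjusted p = 0.189 for each). At chr2:178177986-178178320 the fold was 17.8 and 33.8 in CFL1 knockout 3 and 5 against 3.68 and 2.80 in METTL3 knockout 3 and 5, a mean rank of 96.5% against 12.8%. At chr12:133115515-133118099, inside the run of sites of the CFL1 knockout alone named above, it was 17.3 and 29.7 against 3.31 and 3.19. At chr7:37995553-37995963 it was 30.7 and 29.1 against 4.03 and 3.97. The others were chr17:78177801-78178210, chr2:110065488-110065900 and chr19:50834364-50835253, with rank shifts of 77.3 to 79.0 points.

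In the opposite direction, again outside chromosome 8, the shifts reached 91.4 points. At chr14:92505907-92506895 the fold was 1.79 and 2.46 in CFL1 knockout 3 and 5 against 21.6 and 23.2 in METTL3 knockout 3 and 5, a mean rank of 3.95% against 95.3%. At chr3:33838647-33840310 it was 2.33 and 2.99 against 27.2 and 19.0. A pair of neighbouring sites on chromosome 19 moved alike: chr19:1228085-1230571 had 2.50 and 2.85 against 17.7 and 20.8, and chr19:1203077-1203795 had 2.55 and 3.52 against 15.1 and 22.4. The other 2 were chr9:5910451-5911757 and chr16:78152664-78153421, with shifts of 81.5 and 80.3 points. All but the site on chromosome 9, which was in 1, were in both control libraries, while of the 6 sites ranked higher in the CFL1 knockout 1 was in both, 1 in 1 and 4 in neither.

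**Figure D5:**
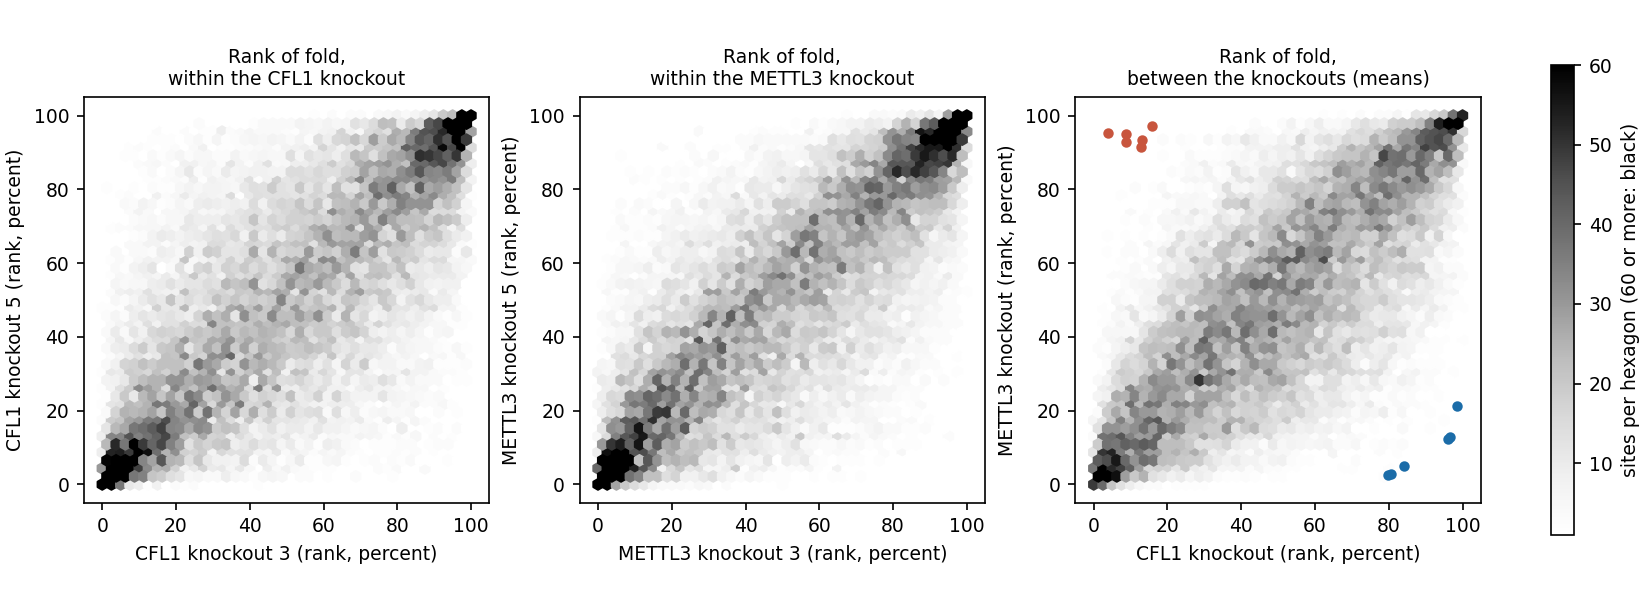
Rank of the fold at the 27095 sites of all 4 libraries, in percent, between the libraries of the CFL1 knockout (left) and of the METTL3 knockout (middle) and between the mean ranks of the knockouts (right); darker hexagons hold more sites, and coloured points are the 12 sites named for their rank shift. Averaging narrows the right panel, so its spread cannot be set against the others by eye; the median shift of single libraries was 10.9 and 12.2 points within a knockout and 14.4 to 16.1 between.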

How the data were processed

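The submitters' processing notes name STAR, MACS2, bedtools and hg19; versions, settings and the use of the inputs were not stated. Each deposited list joins 2 libraries called separately. Deposited values are the fold enrichment (a ratio), −log10 q and a summit offset (another number, in bp). Peak numbers skip 41.8% to 50.2% of values per library, and the reason was not stated. The control list served only for overlaps.

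Peaks on chromosomes 1 to 22 overlapping by at least 1 bp were joined into sites, and the peak of highest −log10 q stood for a library. Fold was used as a rank over the sites of all 4 libraries, converted to normal scores and tested with limma 3.58.1 (R 4.3.3, empirical Bayes, Benjamini-Hochberg). The code was checked on simulated scores of equal spread at every site, which does not show its power on the data. Other steps used pandas 2.3.3 and scipy 1.17.1. Intervals are exact 95% binomial.

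The classes, lists and tests were chosen with earlier results of these data known. Named sites, outside chromosome 8, are the 12 strongest of each knockout alone and the 6 strongest shared by their lowest −log10 q, the 6 of largest rank shift and the 4 of largest width ratio in each direction without overlap between knockouts, and the 4 of largest summit distance with summits within 50 bp inside each knockout. Windows and runs, the highest 6 and 5 by count outside chromosome 8, were ranked after values were seen. Sequence, genes and transcript context need an hg19 reference and were not analysed here.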

Additional observations from a re-analysis of the deposited data

Results flagged for a closer look

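Chromosome X lay outside the comparison, and it also carried sites of 1 knockout alone. Of its 4296 sites, 951 were called in all 4 libraries, 184 in both CFL1 knockout libraries and neither METTL3 knockout library, and 269 in both METTL3 knockout libraries and neither CFL1 knockout library. On chromosomes 1 to 22 the counts of the CFL1 and METTL3 knockout alone were 6454 and 6211 of 115271 sites. On chromosome X the METTL3 knockout thus held more of them, as on chromosomes 2 to 6 and on 9, 10, 12, 13, 14, 15 and 18.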

How the results depend on the processing

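The library numbers 3 and 5 in the peak names do not match replicates 1 and 2 of the labels, and same-numbered libraries did not deviate together in rank score (r = -0.02 over sites), so the numbers were not taken as pairs. With the number as a replicate block, added after seeing the data, limma called 0 sites, with 3934 at an unadjusted p under 0.05. Values follow in the order CFL1 knockout alone, METTL3 knockout alone, their ratio and the percent of sites in all 4 libraries, where they moved or the ratio crossed 1. Joining peaks within 100 bp gave 23.8% in all 4. Joining summits within 100 bp gave a ratio of 0.962 and 12.9%. With peaks under a −log10 q of 5 left out the ratio was 1.13 and 29.2% were in all 4. At 10 there were 3601 and 3550 sites and 33.6% in all 4. At a fold of at least 4 there were 4031 sites of the CFL1 knockout, a ratio of 0.875 and 19.4%. Equal numbers of peaks gave 0.834 and 24.2%. With no peak of the other knockout within 1 kb there were 4272 sites of the CFL1 knockout and a ratio of 0.974. Where both libraries reached a −log10 q of 10 there were 1411 and 1533, a ratio of 0.920. So the ratio settles no direction. Without each library in turn these ran from 9063 to 27140, 8976 to 18525, 0.507 to 2.66 and 28.3% to 32.3%, by construction, as fewer libraries must call a site.

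The chromosome 19 gap kept its sign: 4.01 points by summits, 3.46 at a fold of at least 4, 8.58 where both libraries reached a −log10 q of 10, and 1.93 to 5.54 without each library. The summit distance between knockouts was 26.8 bp at sites with 1 peak per library and 24.2 bp where all 4 libraries reached a −log10 q of 10, and 32 to 36 bp without each library. The median log2 ratio of width stayed below 0, from -0.08 to -0.02 without each library. limma called 0 sites in every alternative run, with 2734 to 6161 at an unadjusted p under 0.05 and a smallest adjusted p from 0.0911 to 0.507. Leave-one-out fits take the spread from the knockout that keeps 2 libraries, with the lone library assumed to vary alike, and as smaller designs their count of 0 says nothing on stability. With thresholds chosen after seeing the data, and leave-one-out ranges without them, the difference per library, CFL1 minus METTL3 knockout, was 1710 peaks from a −log10 q of 10 up (1985 to 8379 without each library), -31 and -46.5 bp of median width from a −log10 q of 5 and from a fold of 4 up (-28 to -5), and -0.40, -0.71 and -0.31 in median fold from a −log10 q of 5, from 10 and from a fold of 4 up (-0.10 to 0.03). The cause of these moves was not tested. Transcript context and sequence were not run.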

Other observations

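Peaks with the same start and end in a pair of libraries were few in all pairs. There were 116 between the CFL1 knockout libraries, 201 between the METTL3 knockout libraries and 66 to 82 in the 4 pairs between knockouts.

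Given both METTL3 knockout libraries and CFL1 knockout 3, 91.0% of sites were also called in CFL1 knockout 5, and with CFL1 knockout 5 given, 87.5% in CFL1 knockout 3. Given both CFL1 knockout libraries and METTL3 knockout 3, 90.6% were also called in METTL3 knockout 5, and 91.4% the other way round. CFL1 knockout 3, the library with the most peaks, thus missed the most sites that the other 3 libraries shared, 3878 against 2536 to 2824 for the others. Its peak numbers also skip the largest share of values, 50.2%, and whether this bears on the missed sites was not tested.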
